A study of Mus musculus with 2 samples.

Results

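The 39 mouse Hox genes were followed through the cell classes of a limb muscle and a respiratory muscle. They were chosen by symbol alone, as every gene named Hoxa to Hoxd with a number, 39 of the 27998 genes in the tables. Mononuclear cells of quadriceps and of diaphragm from C57BL/6J mice (10 mice in the experiment) were freed with collagenase B and dispase II, collected on Lympholyte-M and sorted as viable cells by scatter. Cells of several animals were combined into 1 droplet library for each muscle, so muscle, pool of animals and library cannot be told apart, and no test across samples was possible. Values are unique molecular identifiers (UMIs, single counted transcripts). They were added up within each class of each library and are given as CPM, the class's counts scaled per mega-UMI. All intervals are exact 95% intervals that cover counting error only, and a count of 0 allows a level of up to 3 counts of the total. A fold given as at least a value sets the 0 at 3 counts and leaves out the counting error of the other count.

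Hox genes encode homeodomain transcription factors that lay out position along the body axis and the limb. They lie in 4 clusters, and genes at matching places in the clusters form numbered paralogue groups. Genes of low group number are active early and far to the front of the embryo, and genes of high number later, further back and, for the HoxA and HoxD clusters, outward along the limb. The diaphragm arises at neck levels and the thigh at hindlimb levels. Adult fibroblasts, muscle stem cells and vascular cells are known to keep Hox expression that reflects where they came from.

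Cell classes were set by raw UMIs of marker genes. Fibro/adipogenic progenitors (FAPs), the interstitial fibroblast-like cells of muscle, were cells with at least 1 UMI of Pdgfra, a growth factor receptor, and at least 50 of Dcn, a matrix proteoglycan. Just outside the Dcn limit, with 40 to 49 UMIs, lay 33 quadriceps and 9 diaphragm cells with Pdgfra, and just inside, with 50 to 59, lay 27 and 10. In quadriceps 2339 of 5010 retained cells were FAPs, beside 1162 smooth muscle cells, 195 satellite cells (muscle stem cells), 81 tenocytes (tendon cells), 142 Schwann cells (glia of nerves), 55 endothelial cells (vessel lining) and 411 immune cells. In diaphragm 2008 of 2430 retained cells were FAPs, beside 43 smooth muscle, 18 satellite, 9 endothelial and 131 immune cells, 1 tenocyte and 1 Schwann cell. The median cell had 9719 UMIs over all quadriceps barcodes and 11853 over all diaphragm barcodes, and 5 barcodes occurred in both libraries, 3 of them FAPs in each. All 6 FAP markers were seen in at least 10% of the FAPs of each library. Smooth muscle markers summed to 1935 CPM in quadriceps FAPs and 48 CPM in diaphragm FAPs, with 5 and 1 of 7 markers in at least 10% of cells, and 77 quadriceps FAPs and 1 diaphragm FAP also passed the limits of another class. Leaving those cells out, or the shared barcodes, left the counts of Hox genes called in FAPs at the 7 and 13 given for all FAPs. Over 5% mitochondrial UMIs were found in 24.4% of quadriceps and 22.0% of diaphragm FAPs, and in 99.7% of smooth muscle, 88.7% of satellite, 85.2% of tenocyte, 88.7% of Schwann, 80.0% of endothelial and 56.7% of immune cells of quadriceps. In diaphragm they were found in all smooth muscle cells, 77.8% of satellite and 72.5% of immune cells. Each comparison of a class with FAPs therefore moves with this share, and its part in the differences was not tested.

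In GRCm38, HoxA held 11 genes on chromosome 6 (minus strand). HoxB held 10 genes on chromosome 11 (96194316 to 96368256, plus strand), HoxC 9 on chromosome 15 (102921103 to 103036852, plus strand) and HoxD 9 on chromosome 2 (74668310 to 74765142, plus strand). Promoter windows, 250 bases before to 50 after a RefSeq transcript start (GRCm38.p6), were found for 22 of the 39 genes, 24 windows in all. Those of the HoxA genes Hoxa5, Hoxa9 and Hoxa10 are shown because Hoxa5 was higher in diaphragm FAPs and Hoxa9 and Hoxa10 in quadriceps FAPs. That of Hoxb4 is shown because only Hoxb2 gave more Hox UMIs in diaphragm FAPs. Each reads 5′ to 3′ on the strand of the gene, and capitals mark the letters CCAAT or their reverse complement.
Hoxa5, chr6:52204538-52204837, minus strand: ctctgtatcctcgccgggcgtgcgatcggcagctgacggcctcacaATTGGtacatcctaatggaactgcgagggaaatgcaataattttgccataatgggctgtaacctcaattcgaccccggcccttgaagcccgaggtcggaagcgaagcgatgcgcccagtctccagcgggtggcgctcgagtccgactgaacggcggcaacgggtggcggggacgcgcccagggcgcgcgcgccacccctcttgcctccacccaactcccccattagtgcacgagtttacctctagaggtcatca
Hoxa9, chr6:52227321-52227620, minus strand: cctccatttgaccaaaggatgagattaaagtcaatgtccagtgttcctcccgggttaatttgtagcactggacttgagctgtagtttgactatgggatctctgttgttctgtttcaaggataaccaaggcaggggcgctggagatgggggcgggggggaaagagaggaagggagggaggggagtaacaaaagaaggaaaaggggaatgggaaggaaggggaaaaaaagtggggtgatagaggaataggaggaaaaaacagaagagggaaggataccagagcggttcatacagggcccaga
Hoxa10, chr6:52234890-52235189, minus strand: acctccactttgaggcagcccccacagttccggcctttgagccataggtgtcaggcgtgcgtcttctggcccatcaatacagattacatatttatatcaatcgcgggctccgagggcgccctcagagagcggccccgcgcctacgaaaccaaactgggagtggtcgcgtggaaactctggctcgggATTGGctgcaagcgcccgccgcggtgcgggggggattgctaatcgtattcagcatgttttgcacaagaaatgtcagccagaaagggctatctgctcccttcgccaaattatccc
Hoxb4, chr11:96318017-96318316, plus strand: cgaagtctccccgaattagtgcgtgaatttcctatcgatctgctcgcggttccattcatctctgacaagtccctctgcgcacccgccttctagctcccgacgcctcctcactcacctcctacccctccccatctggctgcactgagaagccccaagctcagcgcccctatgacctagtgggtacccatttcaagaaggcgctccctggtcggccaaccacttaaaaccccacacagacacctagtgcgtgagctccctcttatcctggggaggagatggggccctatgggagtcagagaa
CCAAT was searched on both strands and stood in 15 of the 24 Hox windows (62.5%), against 37.4% of the 32851 promoter windows of the whole table. In the sequences above it occurred in the Hoxa5 and Hoxa10 windows and not in the Hoxa9 and Hoxb4 windows. Hoxa10 has a second window, chr6:52240805-52241104, without it. The letters TGATTNAT stood in 8.33% of the Hox windows and 3.22% of all windows, and TTTATNG in 8.33% and 10.9%, neither of them in the 4 windows shown. The Hox windows had a median of 14.5 CG dinucleotides, against 7.0 over all windows, and the Hoxa9 window shown had 4. These are descriptions of letters and carry no measure of binding.

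FAPs of the 2 muscles had different sets of Hox genes. In quadriceps FAPs 10819 of 26559263 UMIs were from Hox genes (407 CPM), and 65.0% of these came from HoxC, 27.1% from HoxA, 5.74% from HoxB and 2.18% from HoxD. In diaphragm FAPs 7672 of 25876869 UMIs were from Hox genes (296 CPM), and HoxB gave 41.7%, HoxA 26.9%, HoxC 21.1% and HoxD 10.3%. Paralogue groups 9 to 13 gave 48.3% of Hox UMIs in quadriceps FAPs and 2.09% in diaphragm FAPs, and groups 1 to 5 gave 16.8% and 74.6%. Libraries of this kind count the 3′ end of a transcript with an efficiency that varies by gene, so levels of different genes are set side by side here only as shares of counted UMIs.

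**Figure D1:**
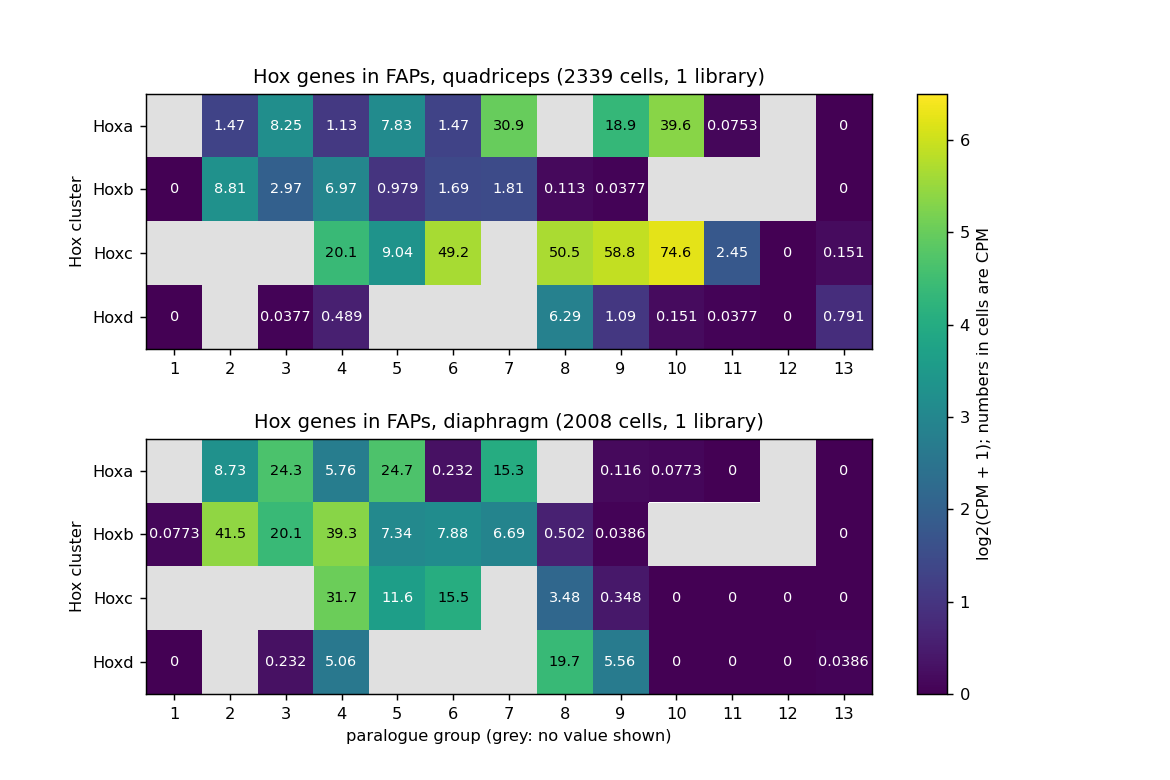
Level of Hox genes in FAPs of quadriceps (upper) and diaphragm (lower), with Hox clusters as rows and paralogue groups as columns; colour is log2(CPM + 1), the printed number is CPM, and grey squares are positions without a value shown. The squares of quadriceps that are brightest lie at Hoxc6 to Hoxc10 and at Hoxa7 and Hoxa10, and the brightest of diaphragm at Hoxb2, Hoxb4 and Hoxc4.

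A gene was called when it differed 2-fold on log2(CPM + 1), among genes with at least 50 UMIs over both sets of cells. Of the 39 Hox genes 23 could be called in FAPs. There, 7 were higher in quadriceps, where 4.9% of all 12460 genes were, and 13 were higher in diaphragm, where 3.11% of all genes were. The other 3 lay between the limits. Of the 20 called genes 12 had 50 UMIs in 1 library only and entered the count through it. A further 11 Hox genes had 1 to 49 UMIs and 5 had none in FAPs, namely Hoxa13, Hoxb13, Hoxc12, Hoxd1 and Hoxd12. The median log2 difference was 0.10 over all genes tested and -1.45 over the 23 Hox genes.

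The genes higher in quadriceps FAPs were Hoxa9 and Hoxa10 and, from HoxC, Hoxc6, Hoxc8, Hoxc9, Hoxc10 and Hoxc11. Hoxc10 (ENSMUSG00000022484, chromosome 15, 102966796 to 102971893), a factor of hindlimb-level identity, had 74.6 CPM (71.3 to 77.9) in quadriceps and 0 of 25876869 UMIs in diaphragm, at least 643-fold lower there. Its neighbour Hoxc9 had 58.8 CPM against 0.348 CPM, a ratio of 169 (88.9 to 371). Hoxa10 had 39.6 CPM from 1051 UMIs against 2 UMIs in diaphragm, a ratio of 512 (141 to 4233), and Hoxa9 had 18.9 CPM against 3 UMIs, a ratio of 163 (55.6 to 795). Hoxc10, Hoxc9, Hoxa10 and Hoxa9 ranked at 2, 7, 8 and 16 among the 12460 genes ordered by difference towards quadriceps. Hoxc8 was 50.5 and 3.48 CPM (ratio 14.5, 11.7 to 18.2) and Hoxc6 was 49.2 and 15.5 CPM (ratio 3.18, 2.84 to 3.57). Hoxc11 reached 2.45 CPM in quadriceps and had no UMI in diaphragm, at least 21.1-fold lower.

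The 13 genes higher in diaphragm FAPs included all 6 HoxB genes that could be called. Hoxb2, a hindbrain and neck-level gene, had 41.5 CPM (39.1 to 44.1) in diaphragm and 8.81 CPM (7.72 to 10.0) in quadriceps, 4.72-fold higher. Hoxb4 (ENSMUSG00000038692, chromosome 11, 96318267 to 96321638), also known as a regulator of blood stem cells, had 39.3 and 6.97 CPM, 5.65-fold higher (4.82 to 6.64). Hoxb3 was 6.77-fold (5.33 to 8.69), Hoxb5 7.50-fold (4.96 to 11.8), Hoxb6 4.65-fold and Hoxb7 3.70-fold higher. HoxA added Hoxa2 (5.95-fold), Hoxa3 (2.94-fold), Hoxa4 (5.10-fold) and Hoxa5 (3.15-fold). Hoxa5, which is needed for lung, diaphragm innervation and neck-level vertebrae, had 24.7 CPM in diaphragm and 7.83 CPM in quadriceps. HoxD added Hoxd4 (10.3-fold, 5.84 to 19.9), Hoxd8 (3.13-fold) and Hoxd9 (5.10-fold, 3.40 to 7.88). Of the exon bases of Hoxd4 52.3% are shared with another gene on the same strand, but of its 3′ end, where these libraries count, only 4.4%.

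The ratio of quadriceps to diaphragm turned from below 1 to above it along HoxA and HoxC. In HoxC it was 0.633 (0.566 to 0.706) for Hoxc4, 0.782 for Hoxc5, 3.18 for Hoxc6, 14.5 for Hoxc8 and 169 for Hoxc9, with Hoxc10 without UMIs in diaphragm. In HoxA it was between 0.168 and 0.340 for Hoxa2 to Hoxa5, 2.02 (1.79 to 2.28) for Hoxa7, just under the limit for a call, and 163 for Hoxa9. Hoxa6, between them, had 39 and 6 UMIs, too few for a call, with a ratio of 6.33 (2.66 to 18.3). HoxB and HoxD showed no such turn over the genes with enough UMIs, which in HoxD were Hoxd4, Hoxd8 and Hoxd9 only. Hoxd13, at the far end of HoxD, had 21 UMIs in quadriceps and 1 in diaphragm, too few for a call. Paralogues of 1 group could differ in direction. In group 8, Hoxc8 had a ratio of 14.5 and Hoxd8 of 0.320 (0.267 to 0.381), and in group 9 the ratio was 163 for Hoxa9, 169 for Hoxc9 and 0.196 (0.127 to 0.294) for Hoxd9.

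**Figure D2:**
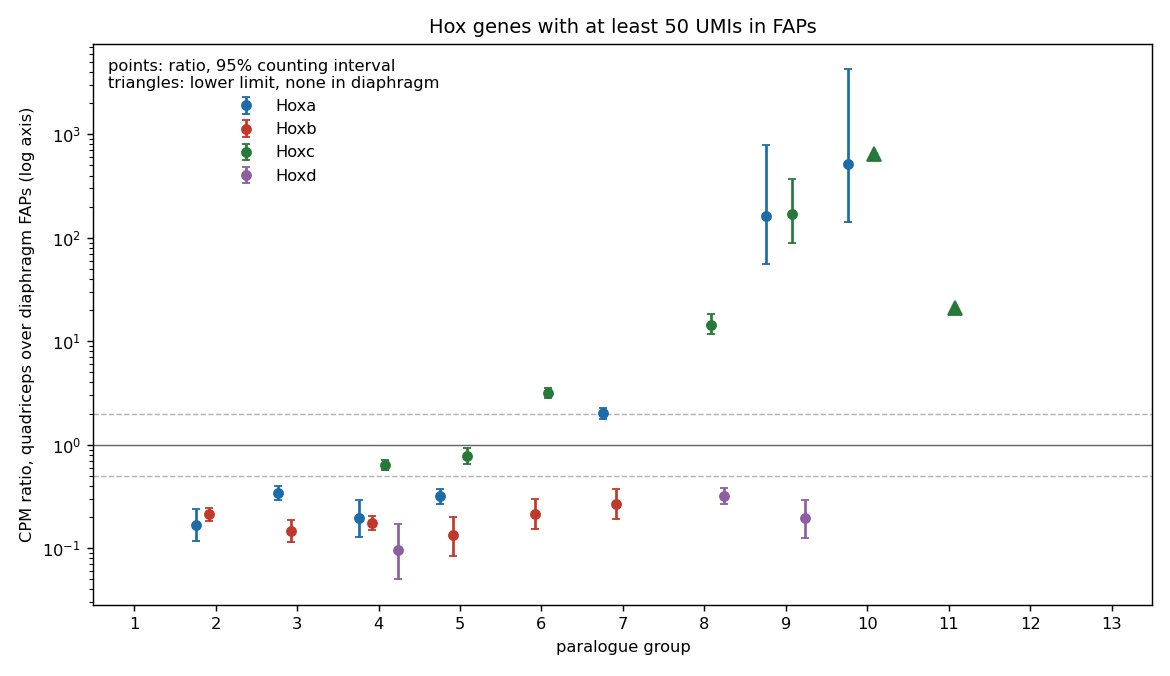
Ratio of the level in quadriceps FAPs to that in diaphragm FAPs (log axis) for the 23 Hox genes with at least 50 UMIs, by paralogue group and coloured by cluster; bars are 95% counting intervals, triangles are lower limits for Hoxc10 and Hoxc11, which had no diaphragm UMI, and dashed lines mark 2-fold. The HoxB and HoxD points shown stay below 1, while HoxA and HoxC points cross it between groups 5 and 7.

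Rare Hox transcripts of the limb end of the clusters were also counted. Hoxd13, a factor of the most distal limb, had 21 UMIs in 16 quadriceps FAPs, with 4 in a single cell, and 1 UMI in diaphragm, a ratio of 20.5 (3.29 to 846). Hoxa11, which patterns the middle limb segment, had 2 UMIs in quadriceps FAPs and none in diaphragm. Hoxc13 and Hoxd10 had 4 UMIs each and Hoxd11 had 1, all in quadriceps. At the other end, Hoxb1 had 0 UMIs in quadriceps and 2 in diaphragm. Hoxb8 had 3 and 13, Hoxb9 1 and 1, and Hoxd3 1 and 6. The order of levels among such rare genes was not readable at this depth.

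Per cell, Hox transcripts were few and widespread. A quadriceps FAP had a median of 4 Hox UMIs (quartiles 2 and 6) from 3 genes, and a diaphragm FAP a median of 3 (quartiles 2 and 5) from 3 genes. At full depth 96.1% of quadriceps and 94.6% of diaphragm FAPs had a Hox UMI. With each cell thinned to 1000 UMIs the shares were 33.4% (31.4 to 35.3) and 26.8% (24.9 to 28.8). The same share was 1.46% in quadriceps and 2.29% in diaphragm immune cells. Hoxb4 gave 20 of the 32 Hox UMIs of quadriceps immune cells and 6 of the 11 of diaphragm immune cells. How much of the immune share came from free RNA was not tested. Median depths before thinning were 10782 and 12572.5 UMIs in FAPs and 3839 and 5404 UMIs in immune cells. A UMI of groups 9 to 13 remained in 18.3% of thinned quadriceps FAPs and 0.598% of thinned diaphragm FAPs. For Hoxc10 the thinned share was 7.95% in quadriceps FAPs (51.3% at full depth), 0.243% in quadriceps immune cells and 0 of 2008 diaphragm FAPs, which allows a share of up to 0.149%. For Hoxb4 it was 3.78% in diaphragm FAPs (36.0% at full depth) and 0.684% in quadriceps FAPs (6.97%). Immune cells had 1.53% (0.185 to 5.41) in diaphragm and 0.730% (0.151 to 2.12) in quadriceps, and both intervals held the share of the FAPs beside them. In summed counts Hoxb4 was 39.3 CPM (37.0 to 41.8) in diaphragm FAPs and 7.41 CPM (2.72 to 16.1) in diaphragm immune cells, with intervals apart. In quadriceps it was 6.97 CPM (6.00 to 8.04) in FAPs and 10.4 CPM (6.33 to 16.0) in immune cells.

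Within a library a few pairs of Hox genes were counted in the same cells. Of 247 diaphragm FAPs with a Hoxa7 UMI 30.8% also had Hoxc6, against 14.4% of those without, at median depths of 13414 and 12473 UMIs. Of 55 diaphragm FAPs with Hoxc8 43.6% had Hoxc6, against 15.7% of the rest, at 13564 and 12568 UMIs. Among diaphragm FAPs with and without Hoxb4 the shares were closer, 30.6% and 31.4% for Hoxc4, 41.6% and 37.9% for Hoxb2, and 21.3% and 19.7% for Hoxa5. In quadriceps FAPs Hoxa10 was found in 35.8% of cells with Hoxc10 and 31.1% of cells without, at 11204 and 10219 UMIs. With and without Hoxc10 the shares were 47.1% and 41.9% for Hoxc9, 8.49% and 7.91% for Hoxa5, and 0.833% and 0.527% for Hoxd13. Hoxb4 was found in 8.84% of quadriceps FAPs with Hoxc6 and 5.76% of those without. Cells of 1 library are not replicates, so these shares describe the libraries.

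Smooth muscle cells, the contractile cells of vessel walls, also differed between the muscles, mostly in the direction seen in FAPs. Quadriceps smooth muscle cells had 345 CPM of Hox UMIs and the 43 cells of diaphragm 303 CPM, with 45.3% and 1.36% from groups 9 to 13. Of 17 Hox genes that could be called 8 were higher in quadriceps (9.06% of all genes were) and 7 in diaphragm (4.21% of all genes). None of these 15 genes had 50 UMIs in diaphragm. They entered through the larger quadriceps sample, except Hoxa4, which had 38 UMIs there and 12 in diaphragm. The median log2 difference was 0.08 over all genes and 0.07 over these Hox genes. Hoxa10 had 68.5 CPM in quadriceps and no UMI among 485221 in diaphragm, at least 11.1-fold lower. Hoxc10 was 32.3 CPM and Hoxa9 32.5 CPM in quadriceps and both without UMIs in diaphragm, at least 5.23-fold and 5.26-fold lower. Hoxa7 was 57.0 against 4.12 CPM, a ratio of 13.8 (3.82 to 114), where FAPs had 2.02. Hoxc4 went against FAPs, with 141 UMIs in quadriceps and 1 in diaphragm, a ratio of 4.11 whose interval (0.725 to 163) held 1. Higher in diaphragm were Hoxa5 (49.5 against 5.40 CPM), Hoxa4, Hoxa3, Hoxb2 (78.3 against 30.2 CPM), Hoxb3, Hoxb4 and Hoxd8. The 24 Hoxa5 UMIs of diaphragm lay in 9 of the 43 cells, with 9 UMIs in a single cell. No diaphragm smooth muscle cell had 5% mitochondrial UMIs or less.

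Compared with FAPs of the same library, quadriceps smooth muscle cells had more HoxA and less HoxC. HoxA gave 49.9% of their Hox UMIs and HoxC 33.0%. Of 20 Hox genes 2 were higher than in FAPs (10.9% of all genes were), Hoxb2 at 30.2 against 8.81 CPM (ratio 3.43, 2.93 to 4.02) and Hoxd9 at 4.38 against 1.09 CPM. The 6 lower genes (28.4% of all genes were lower) were Hoxc4, Hoxc5, Hoxc8, Hoxc9, Hoxc10 and Hoxc11, all of HoxC. Both counts lay near the shares over all genes. Hoxd9 reached 50 UMIs through smooth muscle cells only, and Hoxc11 through FAPs only. Hoxc9 fell from 58.8 CPM in FAPs to 17.8 CPM in smooth muscle, a ratio of 0.302 (0.266 to 0.342). Hoxa7, Hoxa9 and Hoxa10 had ratios of 1.85, 1.72 and 1.73, under the limit. The median log2 difference was -0.42 over all genes and -0.43 over the Hox genes. In diaphragm, of 18 Hox genes 1 was higher in smooth muscle than in FAPs (10.6% of all genes), Hoxa4 at 24.7 against 5.76 CPM (ratio 4.30, 2.17 to 7.73). A further 6 were lower (35.2% of all genes), of which Hoxc4 and Hoxa7 had intervals below 1. All 7 reached 50 UMIs through FAPs only, and neither count was above the share over all genes.

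**Figure D3:**
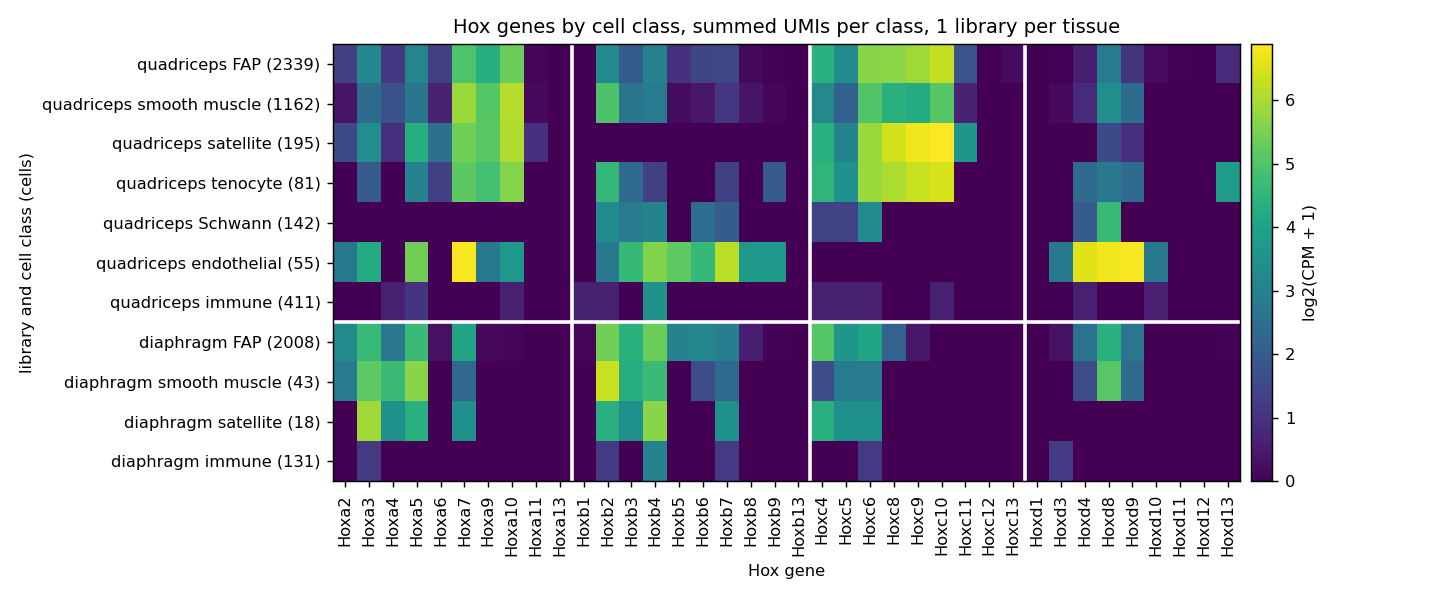
Level of Hox genes, log2(CPM + 1), in the cell classes of quadriceps (upper rows) and diaphragm (lower rows), with the number of cells in parentheses and white lines between Hox clusters and libraries. Satellite cells of quadriceps have no HoxB signal, Schwann cells none of HoxA, endothelial cells none of HoxC, and immune cells are near 0 except at Hoxb4.

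Satellite cells of quadriceps carried HoxA and HoxC transcripts and no HoxB transcript. Of their 1058587 UMIs 619 were from Hox genes (585 CPM), 69.0% from HoxC and 30.5% from HoxA, and none came from the 10 HoxB genes, which allows each up to 2.83 CPM. Hoxb2 and Hoxb4 were at least 3.11-fold and 2.46-fold lower than in quadriceps FAPs. Hoxc10 had 117 CPM (97.4 to 140), Hoxc9 106 CPM and Hoxc8 85.0 CPM, 1.57, 1.80 and 1.68 times the FAP levels. Of 16 Hox genes 2 were higher than in FAPs (8.68% of all genes were), Hoxa5 (ratio 2.41, 1.44 to 3.82) and Hoxc11 (4.63, 2.28 to 8.65), and 4 were lower (22.2%), Hoxb2, Hoxb3, Hoxb4 and Hoxd8. These 6 reached 50 UMIs through FAPs only, and the intervals of Hoxb3 and Hoxd8 held 1. The lack of HoxB was not shared by the few diaphragm satellite cells. Those 18 cells had 23 Hox UMIs in 101075, and 39.1% of these came from HoxB, with 5 UMIs of Hoxb4. They had none of groups 9 to 13, where quadriceps satellite cells had 57.5% of their Hox UMIs. Between the muscles 5 Hox genes could be called in satellite cells, each higher in quadriceps (18.9% of all genes were, and 5.2% were lower), namely Hoxa10, Hoxc6, Hoxc8, Hoxc9 and Hoxc10. All 5 reached 50 UMIs through the larger quadriceps sample, and the interval of Hoxc6 (0.990 to 230) held 1. Smooth muscle markers summed to 1494 CPM in quadriceps and 1069 CPM in diaphragm satellite cells, and their part in these levels was not tested.

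In tenocytes of quadriceps 1 of 16 Hox genes was higher than in FAPs (5.41% of all genes were), Hoxb2 at 23.2 against 8.81 CPM, and 3 were lower (16.4% of all genes were), shares near those over all genes. The lower genes, Hoxa3, Hoxb4 and Hoxc11, had 2, 1 and 0 UMIs in tenocytes, and their intervals held 1. Hoxb2 had 16 UMIs in tenocytes, and all 4 genes reached 50 UMIs through FAPs only. Hoxc10 was 86.9 CPM (66.3 to 112) and Hoxc9 78.2 CPM. The class had its 8 tenocyte markers in at least 10% of cells and FAP markers at 45204 CPM, against 27940 CPM in FAPs. Hoxd13 had 9 UMIs in 7 of the 81 tenocytes, a level 16.5 times (6.65 to 37.5) the 0.791 CPM of FAPs. The median log2 difference from FAPs was 0.18 over the 16 Hox genes and -0.20 over all genes. Hoxd13 had too few UMIs for a call and was singled out after its values were seen.

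Schwann cells and endothelial cells had sets of their own, and their genes, all with under 20 UMIs in the class, are named here after their values were seen. The 142 Schwann cells of quadriceps had 46 Hox UMIs in 661845 (69.5 CPM), none of HoxA and none of groups 9 to 13. Hoxd8 had 16 UMIs, 24.2 CPM (13.8 to 39.3), 3.84 times the FAP level, and Hoxb2 and Hoxc6 had 6 UMIs each. Of 17 Hox genes 1 was past 2-fold higher than in FAPs (13.4% of all genes were) and 12 were past 2-fold lower (26.2%). All 13 reached 50 UMIs through FAPs only, and the FAP level of Hoxc11, 2.45 CPM, lay under the 4.53 CPM that 0 UMIs allow in Schwann cells. Hoxc10, which gave more UMIs than any other Hox gene in FAPs of the same library, had no UMI in Schwann cells, at least 16.4-fold lower, and Hoxc8 at least 11.1-fold lower. The 55 endothelial cells had 128 Hox UMIs in 169297 (756 CPM), none of them from HoxC. HoxD gave 43.0%, HoxB 30.5% and HoxA 26.6%. Hoxd9 and Hoxa7 had 112 CPM each (67.6 to 175), Hoxd8 106 CPM, Hoxd4 94.5 CPM and Hoxb7 70.9 CPM (36.6 to 124), 103, 3.63, 16.9, 193 and 39.2 times the FAP levels. Hoxd9 and Hoxd4, with 29 and 13 UMIs in FAPs, had too few UMIs over both classes for a call. Of 17 Hox genes 7 were past 2-fold higher than in FAPs (16.6% of all genes were), but the interval of Hoxa3, with 3 UMIs, held 1. A further 9 were past 2-fold lower (28.6% of all genes were), and none of the 16 had 50 UMIs in endothelial cells. Of the lower genes Hoxc6, Hoxc8, Hoxc9 and Hoxc10 had intervals below 1, with Hoxc10 at least 4.21-fold lower, while for Hoxc5 and Hoxc11 the FAP level itself lay under the 17.7 CPM that 0 UMIs allow in endothelial cells. The 9 endothelial cells of diaphragm had 8 Hox UMIs, of Hoxb6, Hoxb7, Hoxd4 and Hoxd9, and no Hox gene had enough UMIs for a call between the libraries (15.2% of all genes were higher in quadriceps and 5.29% lower).

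Immune cells had almost no Hox transcripts apart from Hoxb4. Quadriceps immune cells had 32 Hox UMIs (16.6 CPM) and diaphragm immune cells 11 (13.6 CPM). Hoxb4 gave 20 of the 32, 10.4 CPM (6.33 to 16.0) in 16 cells, and 6 of the 11, 7.41 CPM (2.72 to 16.1). In quadriceps it was 12.4 CPM in B cells, 8.05 in T cells, 9.81 in NK cells and 11.1 in macrophages or monocytes, with intervals that overlap. Hoxb2, with 8.81 CPM in quadriceps FAPs, had 1 UMI in quadriceps immune cells, so Hoxb4 stood apart from other HoxB genes there. Hoxc10 had 1 UMI in quadriceps immune cells, 0.518 CPM. Against FAPs of the same library 15 of 16 Hox genes were lower in quadriceps (34.1% of all genes), with Hoxb4 the exception, and 18 of 18 in diaphragm (35.9%), while 0 were higher in either (12.9% and 12.4%). Every gene called reached 50 UMIs through FAPs only, so these counts describe genes that FAPs express and lend no support. For Hoxc8 in diaphragm the FAP level of 3.48 CPM lay under the 3.71 CPM that 0 UMIs allow. Between the muscles no Hox gene had enough UMIs in immune cells (5.86% of all genes were higher in quadriceps and 3.52% lower).

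**Figure D4:**
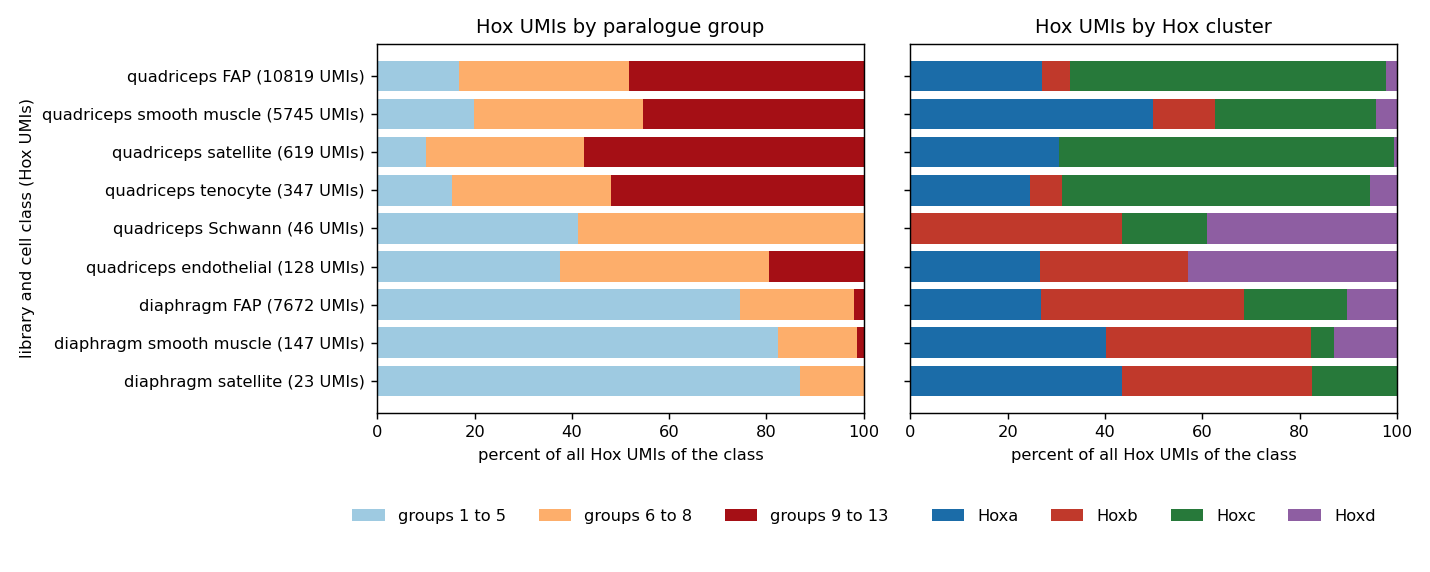
Share of the Hox UMIs of each class from paralogue groups (left) and from Hox clusters (right), in percent, with the number of Hox UMIs in parentheses. Groups 9 to 13 take 45.3% to 57.5% in quadriceps FAPs, smooth muscle cells, satellite cells and tenocytes, and at most 2.09% in the 3 diaphragm classes shown. Quadriceps Schwann and endothelial cells had 0% and 19.5%, and diaphragm endothelial cells 37.5% of only 8 Hox UMIs.

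FAPs are a mixed class, and the muscle difference was therefore followed within FAP subclusters. FAPs of both libraries were clustered together without the Hox genes into 9 subclusters, numbered by size and known here by their leading genes. Subclusters 1 (Ccl2, Stmn4, Cmah), 2 (Mme, Hsd11b1, Cxcl14), 3 (C4b, Col6a5, Gdf10) and 4 (C1qtnf3, Thbs4, Tnmd) held at least 50 cells of each library. In each of these 4, Hoxa7, Hoxa9, Hoxa10, Hoxc6, Hoxc8, Hoxc9 and Hoxc10 had a higher level in quadriceps and the HoxB genes Hoxb2 to Hoxb7 a higher level in diaphragm. The log2 difference ran from 5.97 to 6.54 for Hoxc10 and from -4.01 to -2.18 for Hoxb4. Groups 9 to 13 gave 36.4% to 57.1% of Hox UMIs over the 8 quadriceps subclusters of at least 50 cells and 1.19% to 2.78% over the 5 of diaphragm, so the ranges did not overlap.

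Some Hox genes also varied among subclusters of 1 muscle. Subcluster 6 (Dmkn, Bmp3, Sbsn), with 249 quadriceps and 8 diaphragm FAPs, had Hoxb4 at 18.2 CPM (13.8 to 23.5) in quadriceps, 3.32 times (2.39 to 4.58) that of the other quadriceps FAPs, and Hoxb2 at 18.5 CPM, 2.46 times. The same cells had Hoxc8 at 86.0 CPM, 1.88 times, and Hoxc10 at 48.1 CPM, 0.616 times (0.519 to 0.727) the others. Subcluster 7 (Lyz2, Ptx3, Has1), with 119 diaphragm FAPs, had Hoxa7 at 36.9 CPM, 2.67 times the 13.8 CPM of the other diaphragm FAPs, Hoxa5 at 42.3 CPM, 1.80 times, and Hoxc8 at 9.52 CPM, 3.11 times (1.69 to 5.40). Subcluster 3 had Hoxd4 at 9.53 CPM in diaphragm, 2.46 times (1.70 to 3.54), and Hoxa10 at 57.9 CPM in quadriceps, 1.57 times. The small subcluster 9, 55 quadriceps FAPs led by the smooth muscle genes Tagln, Myh11 and Acta2, had Hoxb2 at 21.1 CPM. Its median depth was 23918 UMIs and 96.4% of its cells were over 5% mitochondrial UMIs. Subclusters were formed from the same cells, so these values are descriptions.

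**Figure D5:**
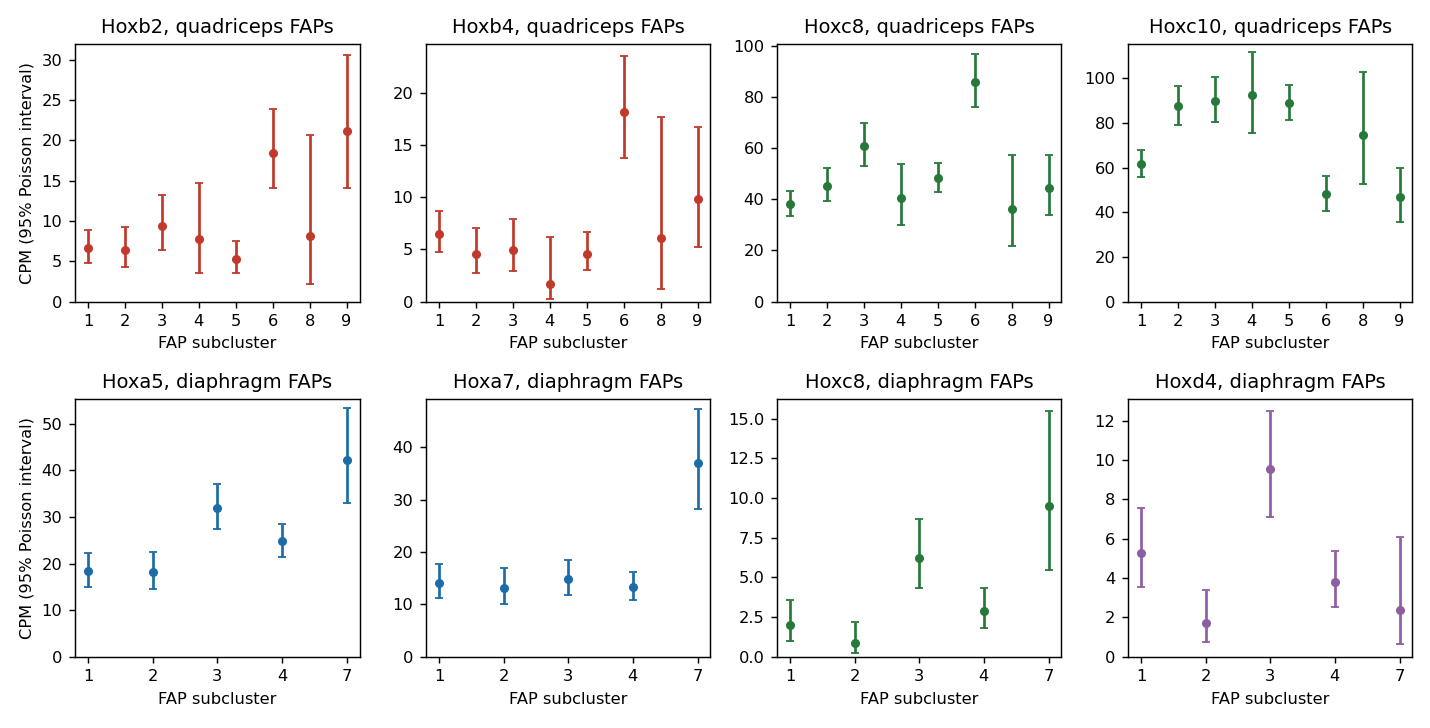
Level in CPM with 95% Poisson intervals of 4 Hox genes over the FAP subclusters of quadriceps (upper) and of 4 over those of diaphragm (lower), for subclusters with at least 50 cells. Hoxb2, Hoxb4 and Hoxc8 are high in subcluster 6 of quadriceps, where Hoxc10 is low, and Hoxa5, Hoxa7 and Hoxc8 are highest in subcluster 7 of diaphragm.

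Proteins that work with Hox factors or set their expression were compared in FAPs in the same way. Of 9 cofactors of the TALE class, which bind DNA beside Hox proteins, 2 passed 2-fold, both higher in diaphragm, against 3.11% of all genes higher there and 4.9% higher in quadriceps. These were Meis2 at 116 against 40.4 CPM (2.88-fold, 2.69 to 3.09) and Meis1 at 46.9 against 20.8 CPM (2.26-fold). None of 16 Polycomb genes, which keep Hox genes silent, none of 4 trithorax genes, which keep them active, and none of the retinoic acid receptors Rara, Rarb and Rarg passed the limit in either direction, with median log2 differences of 0.01, 0.15 and 0.07. Lists this short would hold few calls at the share over all genes, so nothing particular to them can be read. Cdx1, Cdx2 and Cdx4, activators of posterior Hox genes in the embryo, had no UMI in FAPs. Of 20 other transcripts within or beside the Hox clusters 5 could be called and 4 were higher in diaphragm. The 4 were the noncoding RNAs Hotairm1 (18.2 against 6.40 CPM), Hoxaas3 (4.07-fold), Hoxb3os (11.9 against 3.58) and Hoxd3os1 (9.58 against 1.24 CPM, 7.71-fold, 5.35 to 11.5). Hotair, a HoxC noncoding RNA of the posterior end named here after its values were seen, had 8 UMIs in quadriceps and none in diaphragm. That was too few for a call, and the exact lower limit of its ratio was 1.66.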

How the data were processed

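The data were 10x Genomics 3′ libraries, 1 of quadriceps and 1 of diaphragm. The authors aligned the reads to mm10, with Cell Ranger 3.0.0 named in the submitters' processing notes, and the deposited matrices hold raw UMI counts per gene and barcode. Barcodes with at least 1000 UMIs and below the median plus 3 median absolute deviations were retained. A limit of 5% mitochondrial UMIs was tried only as an alternative, since it leaves 4 of 1162 quadriceps smooth muscle cells.

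Further limits, in UMIs, were Myh11 5 and Acta2 10 for smooth muscle (Dcn under 50), Tnmd 1 and Fmod 5 without Pdgfra and 3 markers for tenocytes, sums of 3 (2 markers) for satellite cells and 5 (3 markers) for endothelial and immune cells, the latter with Ptprc. Barcodes that passed no limit (606 and 219) or several were set aside. Schwann cells were set by limits on marker genes that, like a few other genes, are not reported here. These limits were set after the values were seen, and the Hox genes, lists and markers were chosen with earlier results of these data known. Doublets were not removed; Scrublet called 98 and 4 barcodes and leaving them out was an alternative.

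Counts were summed per class and library. Ratios have exact conditional binomial intervals, levels exact Poisson intervals and shares Clopper-Pearson intervals. Genes named were those with at least 50 UMIs in FAPs of a library or 20 in another class, others as stated. A gene at 0 was set at 3 counts over the class for a limit. FAPs were clustered by Leiden (resolution 0.5, 10 components, 20 neighbours, genes scaled within library, Hox and mitochondrial genes left out) with scanpy 1.11.5. Positions are from GENCODE M21 (GRCm38) and promoter windows from RefSeq. Alternatives were another pseudocount, filter, scaling, marker limit, depth and cluster resolution.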

Additional observations from a re-analysis of the deposited data

Results flagged for a closer look

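Barcodes that passed no marker limit, 606 in quadriceps and 219 in diaphragm, entered none of the comparisons and still held Hox UMIs far above the level of immune cells. Their summed Hox level was 327.1 CPM in quadriceps and 269.1 CPM in diaphragm, against 16.6 and 13.6 CPM in immune cells. Groups 9 to 13 gave 40.0% of these Hox UMIs in quadriceps and 1.71% in diaphragm. Their median depths were 3078.5 and 3214 UMIs. No explanation was tested.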

How the results depend on the processing

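No paired analysis was possible because each muscle had 1 library, and for the same reason no replicate could be left out. With 1 library per muscle no value here speaks of variation between animals. Over the alternatives in FAPs the count of Hox genes higher in quadriceps ran from 6 to 8, and no Hox gene with enough UMIs changed direction. With a pseudocount of 5 CPM in place of 1, the count higher in diaphragm was 8 in place of 13, since that pseudocount shrinks differences of low genes. Thinning to 3000 UMIs in place of 1000 gave 20.2% of quadriceps FAPs with Hoxc10 and 2.07% of quadriceps and 10.5% of diaphragm FAPs with Hoxb4. Under the mitochondrial limit the 4 remaining quadriceps smooth muscle cells had 83.3% of Hox UMIs from groups 9 to 13 and 0% from HoxB, the 11 remaining endothelial cells had 39% and 19.5%, and no diaphragm smooth muscle cell remained, so that comparison was not run. At resolution 1.0 the highest over the lowest summed Hox level of quadriceps subclusters was 1.68 in place of 1.37, and the diaphragm shares of groups 9 to 13 ran from 0.820% to 3.89%. At resolution 0.3 the lowest was 0.988%. The cause of the shifts under the mitochondrial limit was not tested.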

Other observations

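A pair of noncoding RNAs of the Hox clusters were high outside FAPs. Hoxb3os, antisense to Hoxb2 and Hoxb3, had 60 UMIs (90.7 CPM) in quadriceps Schwann cells and 765 UMIs (45.9 CPM) in quadriceps smooth muscle cells, against 3.58 CPM in quadriceps FAPs. In the same Schwann cells Hoxb3 itself had 4 UMIs and Hoxb2 had 6. In quadriceps satellite cells, where no HoxB gene had a UMI, Hoxb3os had 0 UMIs as well. Hotairm1, a noncoding RNA of HoxA, had 28.1 CPM in quadriceps smooth muscle cells and 6.40 CPM in quadriceps FAPs. In diaphragm it had 78.3 CPM (38 UMIs) in smooth muscle cells and 18.2 CPM in FAPs.

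Meis2, the TALE cofactor, had 0 UMIs in quadriceps satellite cells and 14 UMIs (139 CPM) in the 18 diaphragm satellite cells. Evx2, the homeobox gene beside Hoxd13, had 13 UMIs in quadriceps FAPs, 6 in quadriceps tenocytes and 0 in diaphragm FAPs. These genes were singled out after their values were seen.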
